A study of Rattus norvegicus with 4 samples.

Results

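The 10 genes described here form the core of calcium cycling in ventricular muscle: Atp2a2, Pln, Ryr2, Casq2, Cacna1c, Slc8a1, Trdn, Camk2d, Jph2 and S100a1. They were taken by gene symbol from a deposited table of 22861 loci that carry 16580 gene symbols, and all 10 had a locus. The table compares left ventricle of male Sprague Dawley rats after 5/6 nephrectomy (5/6Nx), an operation that leaves a small remnant of kidney and is used as a model of chronic kidney disease. Every rat had the operation at 10 weeks of age and ate 0.4% Dyets chow. The groups differed in the locked nucleic acid (LNA) oligonucleotide that was infused, which was anti-miR-21 in one group and a scrambled sequence, anti-scr, in the other. Infusions of 1 mg/kg were given on 3 days in week 1 and on 3 days in week 4, and hearts were collected in week 7. Each group had 2 libraries, each from the pooled RNA of 2 to 3 rats, and no rat without the operation or without an oligonucleotide enters the comparison.

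In a ventricular muscle cell each beat begins with calcium entering through L-type channels of the surface membrane. That calcium opens ryanodine receptors on the sarcoplasmic reticulum (SR), the internal calcium store, and the released calcium switches on the myofilaments. Relaxation follows when the SR pump SERCA2a takes calcium back up and the sodium-calcium exchanger carries the remainder out of the cell. Loss of SERCA2a activity and leak through the ryanodine receptor are known features of failing hearts.

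The oligonucleotide given to the treated group is directed against mature miR-21-5p, whose rat sequence in RefSeq (build GRCr8) is shown because it is the target of the treatment. Capitals mark the seed, bases 2 to 8, the stretch with which a microRNA recognises its messenger RNAs.
rno-miR-21-5p: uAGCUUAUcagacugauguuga
Seed matches in the transcripts of the calcium genes were not analysed here, and neither was the level of mature miR-21-5p.

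The libraries held 47826514 to 54952098 reads, of which 94.0% to 94.4% mapped. The authors' deposited table gives 1 FPKM per locus and group (fragments scaled to transcript length and to the number mapped), so no spread between libraries and no interval of a difference could be computed. The only error behind a comparison is the one inside the deposited p and q. The replicates behind these were pools, and how the spread between pools was modelled is not given in the sources used here. The genes listed as markers of heart muscle cells were abundant, with 6 measured markers summing to 104079 FPKM under anti-scr and 81880 FPKM under anti-miR-21. All 6 were lower in value under anti-miR-21, with log2 folds (anti-miR-21 over anti-scr) from -0.998 to -0.18 and a median of -0.39, and the creatine kinase gene Ckm passed the deposited q of 0.05. Among other markers, the 4 of fibroblasts were all higher in value (median log2 fold 0.21). The 3 of smooth muscle (-0.34) and the 3 of endothelium (-0.09) were all lower, and the 4 of macrophages were divided (0.02). In bulk tissue, fewer muscle cells and less RNA of these marker genes per cell cannot be told apart. Gene density, described below, also went with the fold across loci, and its part in the marker values was not tested. The part of these shifts in the results for single genes was not tested.

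None of the 10 calcium genes passed the q threshold in the authors' deposited table, as higher or as lower. At a deposited q under 0.05, 0 of 10 were called, where 0.815% of the 12876 tested loci were (0.186% as higher and 0.629% as lower). At a q under 0.1 there were again 0, against 1.31%. At an unadjusted deposited p under 0.05, 1 of 10 was called, Jph2, which was lower. That share is near the 9.3% of all tested loci that pass the same threshold (3.18% as higher and 6.11% as lower). By value, 5 genes were higher with anti-miR-21 (Ryr2, Casq2, Trdn, Camk2d and Slc8a1) and 5 were lower (Atp2a2, Pln, Cacna1c, Jph2 and S100a1). Their median log2 fold was 0.01, and the median over 9662 named loci that averaged 1 FPKM or more was also 0.01. The median size of a member's log2 fold, regardless of sign, was 0.09, against 0.20 over those loci. At the abundance of these genes (a mean FPKM of at least 15.4) the smallest change that passed the deposited q was 0.67 on the log2 scale, a 1.60-fold difference. The smallest with an unadjusted deposited p under 0.05 was 0.36, a 1.28-fold difference. These sizes are the smallest over all tested loci of that abundance, and they are not a detection limit for each gene. Larger differences could also miss, as with Myl2 (log2 fold -0.38, p = 0.0802 in the authors' deposited table). A missed threshold does not show that the genes were equal.

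**Figure D1:**
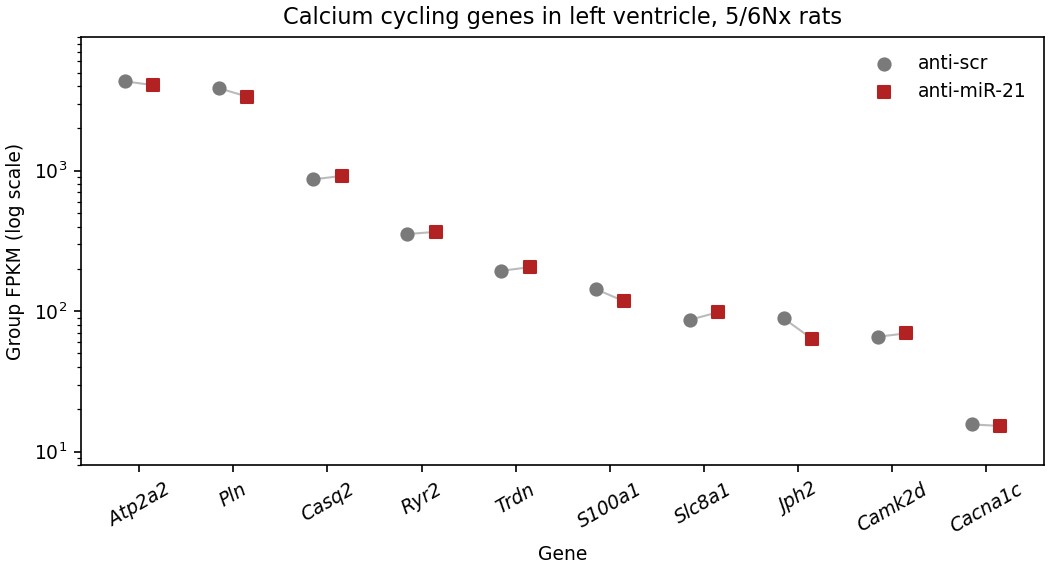
Group FPKM on a log scale for the 10 calcium cycling genes, with anti-scr as grey circles and anti-miR-21 as red squares joined by a line. Each point is the authors' single value for a group, with no error bar, and the levels run from 4331 FPKM for Atp2a2 down to 15.2 FPKM for Cacna1c while the pairs lie close together.

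The levels spanned a 277-fold range under anti-scr, from Atp2a2 to Cacna1c, as the plot of group FPKM shows. Because FPKM is scaled by transcript length, levels of different genes can be set side by side. The order was the same in both groups for the first 6 genes: Atp2a2, Pln, Casq2, Ryr2, Trdn and S100a1. Jph2 stood in position 7 with anti-scr and in position 9 under anti-miR-21, below Slc8a1 and Camk2d. With 1 value per group, whether neighbours in this order differ beyond the spread between libraries could not be assessed.

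SERCA2, the pump that refills the SR, is encoded by Atp2a2, which ranked 19 by mean FPKM among the 9662 named loci. Its level was 4331 FPKM with anti-scr and 4066 FPKM with anti-miR-21, a log2 fold of -0.09 (p = 0.704 and q = 0.966 in the authors' deposited table; chromosome 12, 41434608 to 41482925 on rn5, as the authors' table gives it). The treated value was 6.11% lower. Pln encodes phospholamban, the small membrane protein that brakes the pump until it is phosphorylated. It had 3864 and 3367 FPKM in the same order of groups, a log2 fold of -0.20 (p = 0.573 and q = 0.934 in the authors' deposited table; chromosome 20, 36329576 to 36444121). The table gives the same span to another Pln entry, listed at 0 in both groups, and to LOC100365935, at 5.60 and 6.27 FPKM. The ratio of the Pln level to the Atp2a2 level was 0.892 in the anti-scr group and 0.828 in the treated group. S100a1, which encodes a calcium sensor known to stimulate SERCA2a and to bind the ryanodine receptor, had 144 and 118 FPKM. Its log2 fold of -0.29 was the second lowest of the members and was not called (p = 0.304 and q = 0.817 in the authors' deposited table; chromosome 2, 209330955 to 209342980). The table gives the same span to S100a13, at 31.3 and 37.6 FPKM (log2 fold 0.27), with no strand for either, and how reads were divided between them is not given in the sources used here.

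A different regulator of the same pump did change. Sln encodes sarcolipin, the pump inhibitor that predominates in atrial muscle, and it rose from 50.3 to 119.3 FPKM (log2 fold 1.25, with q = 0.0131 in the authors' deposited table). Its level was 1.16% of that of Atp2a2 with anti-scr and 2.93% under anti-miR-21. Relative to Pln, Sln stood at 1.30% and 3.54%, so phospholamban transcripts outnumbered those of sarcolipin per length in both groups. All 4 measured atrial muscle markers, Sln among them, were higher in value (log2 folds 0.54 to 1.25), and their summed level went from 1813 to 2729 FPKM. Most of that sum was Nppa, at 1492 FPKM with anti-scr and 2165 FPKM with anti-miR-21. The part of atrial tissue in the Sln result was not tested. Of the 7 tested genes listed with the SR pump and its regulators outside the 10 genes, Sln was the 1 with a deposited q under 0.05. Over all tested loci, 0.815% were called. Ppp1r1a, which encodes inhibitor-1 of the phosphatase that acts on phospholamban, had 5.34 and 2.79 FPKM (log2 fold -0.94, p = 0.0081 and q = 0.256 in the authors' deposited table) and is named after its value was seen. The most abundant others were the SR and endoplasmic reticulum chaperone genes Calr (log2 fold 0.03) and Canx (0.32).

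The release channel and its luminal partners had small folds of like size. Ryr2, the cardiac ryanodine receptor gene, had 354 FPKM with anti-scr and 367 FPKM with anti-miR-21 (log2 fold 0.05, p = 0.794 and q = 0.978 in the authors' deposited table; chromosome 17, 67282715 to 67704766). Casq2 encodes cardiac calsequestrin, the protein that stores calcium inside the SR, and had 869 and 917 FPKM (0.08, p = 0.687 and q = 0.962 in the authors' deposited table; chromosome 2, 223945610 to 224002194). Trdn encodes triadin, the anchor that holds calsequestrin to the receptor, and had 194 and 206 FPKM (0.08, p = 0.706 and q = 0.966 in the authors' deposited table; chromosome 1, 26865460 to 27300023). All 3 values were slightly higher with anti-miR-21, by 3.72% to 6.07%. The ratio of the Casq2 level to the Ryr2 level was 2.45 with anti-scr and 2.50 under anti-miR-21, and that of Trdn to Ryr2 was 0.548 and 0.560. Trdn has another locus in the table, with the same span and 1.02 and 0.992 FPKM.

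Of the 11 tested partners of the release unit, 0 had a deposited q under 0.05, and 2, both lower, had an unadjusted deposited p under 0.05. Over all tested loci, 9.3% passed that p, with 6.11% as lower. Hrc encodes the histidine-rich calcium-binding protein of the SR lumen, which binds triadin and SERCA2; it had 331 and 232 FPKM (log2 fold -0.51, p = 0.00615 and q = 0.227 in the authors' deposited table). Casq1, the calsequestrin gene best known from skeletal muscle, had 60.2 and 45.3 FPKM (-0.41, p = 0.0401 and q = 0.508 in the authors' deposited table). The Hrc level was 38.1% of that of Casq2 with anti-scr and 25.3% under anti-miR-21. The fast skeletal myosin genes Myh1 and Myh4 were at or under 0.0364 FPKM in both groups. Other fast skeletal markers were measured, with Tnnt3 at 3.78 and 5.12 FPKM (log2 fold 0.44) and Mybpc2 at 1.47 and 1.41 FPKM (-0.06). Tnni2 had 0.501 and 0.971 FPKM and Atp2a1 had 0.0898 and 0.116 FPKM, both untested. The part of skeletal muscle in the Casq1 value was not tested. The most abundant partners were Calm2, which encodes calmodulin, a protein that restrains the ryanodine receptor, with a log2 fold of 0.29, and Fkbp1a, which encodes an FK506-binding protein, with 268.8 and 300.5 FPKM (0.16). Neither had a deposited p under 0.05. The median log2 fold of the 11 partners was 0.05.

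Jph2 had the largest fold of the 10 genes. It encodes junctophilin-2, which tethers the SR to the T-tubules, the inward folds of the surface membrane, so that L-type channels face ryanodine receptors. Its level was 88.7 FPKM with anti-scr and 63.7 FPKM with anti-miR-21, which is 28.2% lower (log2 fold -0.48, p = 0.0401 and q = 0.508 in the authors' deposited table; chromosome 3, 165905599 to 165969225). An unnamed locus of the same span had 73.3 and 53.1 FPKM (log2 fold -0.46, p = 0.183 and q = 0.734 in the authors' deposited table), and how reads were divided between the pair is likewise not given. After adjustment over all tested loci this difference did not pass. Among the named loci, 9.76% had a lower fold than Jph2 and 14.0% had a larger change in either direction. Relative to the receptor it faces, the Jph2 level was 25.1% of that of Ryr2 with anti-scr and 17.3% under anti-miR-21. The deposited test gave S100a1 a statistic of -1.36 and Jph2 one of -1.43, with p-values of 0.304 and 0.0401, so the deposited p did not follow from the statistic alone.

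None of the 7 tested partners at the junction and T-tubule had a deposited p under 0.05. The related junctophilin gene Jph1 had 11.4 and 11.5 FPKM (log2 fold 0.00) and is named after its value was seen. The most abundant partners were Cav3, which encodes the muscle caveolin, with 93.0 and 76.3 FPKM (-0.29), and Ahnak, which encodes a scaffold that binds the L-type channel, with 58.4 and 59.1 FPKM (0.02). By value 3 of these partners were higher and 4 lower, and their median log2 fold was -0.17.

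Cacna1c encodes the pore of the L-type channel and was the least abundant of the 10 genes. Its level was 15.6 FPKM with anti-scr and 15.2 FPKM with anti-miR-21 (log2 fold -0.04, p = 0.869 and q = 0.989 in the authors' deposited table; chromosome 4, 216559665 to 217201145). That is 4.41% and 4.15% of the Ryr2 level. The table lists Cacna1c at another locus with the same span, at 13.5 and 12.2 FPKM (log2 fold -0.15), and gives no strand for either. Summed over both, the gene had 29.1 and 27.4 FPKM, a log2 fold of -0.09. How reads were divided between the pair is not given in the sources used here, so the level of Cacna1c is uncertain by about the size of the second entry.

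Among the 17 tested partners of surface calcium entry, 0 had a deposited q under 0.05, while 2 higher and 1 lower had an unadjusted deposited p under 0.05. The share of all tested loci that passed that p was 9.3%. The small G proteins Rad and Gem, which both restrain L-type channels, went in opposite directions by value. Rrad, the Rad gene and the most abundant partner here, had 60.2 and 40.6 FPKM (log2 fold -0.57, p = 0.0054 and q = 0.213 in the authors' deposited table). Gem had 4.05 and 6.30 FPKM (0.64, p = 0.0322 and q = 0.469 in the authors' deposited table). Stim2, which encodes a sensor of store calcium, had 4.74 and 6.43 FPKM (0.44, p = 0.0494 and q = 0.537 in the authors' deposited table). The channel's accessory subunit gene Cacnb2, next in abundance, had 21.2 and 20.2 FPKM (-0.07).

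Slc8a1, the gene of the cardiac sodium-calcium exchanger, had the highest fold of the 10. Its level was 86.8 FPKM with anti-scr and 98.0 FPKM with anti-miR-21, or 1.13 times the anti-scr level (log2 fold 0.18, p = 0.342 and q = 0.838 in the authors' deposited table; chromosome 6, 4205753 to 4524798). The ratio of the Slc8a1 level to the Atp2a2 level was 0.0200 and 0.0241. Of the 11 tested partners in calcium extrusion and sodium handling, 0 had a deposited q under 0.05. Fxyd1 was the 1 with an unadjusted deposited p under 0.05, a threshold that 9.3% of all tested loci passed. It encodes phospholemman, which brakes the sodium pump much as phospholamban brakes SERCA2. It had 458 and 283 FPKM (log2 fold -0.69, p = 0.00045 in the authors' deposited table), and its q of 0.0522 there lay just past the threshold. The sodium pump subunit gene Atp1b1 had 340 and 366 FPKM (0.11).

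Camk2d encodes the main cardiac isoform of calmodulin-dependent kinase II, which phosphorylates phospholamban and the ryanodine receptor. Its level was 65.7 FPKM with anti-scr and 69.5 FPKM with anti-miR-21 (log2 fold 0.08, p = 0.678 and q = 0.960 in the authors' deposited table; chromosome 2, 250251879 to 250485104). Of the 15 tested kinase and phosphatase partners, 0 had a deposited q under 0.05. An unadjusted deposited p under 0.05 was found for 1 of them, and for 9.3% of all tested loci. The 1 with an unadjusted deposited p under 0.05 was the locus listed as RGD1560691, an older name of Camk1d in RefSeq, at 0.741 and 1.18 FPKM (0.67, p = 0.0349 and q = 0.483 in the authors' deposited table). The phosphatase catalytic genes Ppp2ca and Ppp1cb were the most abundant, with folds of 0.05 and 0.23. None of the 13 genes of calcineurin, the calcium-dependent phosphatase, and its NFAT factors had a deposited p under 0.05. The calcineurin regulators Rcan1 (392 and 309 FPKM, log2 fold -0.34) and Rcan2 (276 and 295 FPKM, 0.10) led that list in level.

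Downstream of the calcium signal, the myofilament genes were lower in value where the calcium genes were divided. All 9 tested myofilament partners were lower with anti-miR-21, with a median log2 fold of -0.38. Over the named loci that averaged 1 FPKM or more, 51.9% were higher in value. Myl3, a myosin essential light chain, fell from 5253 to 3000 FPKM (-0.81, q = 0.0131 in the authors' deposited table). It was the 1 partner of this list with a deposited q under 0.05, and 4, all lower, had an unadjusted deposited p under 0.05. Over all tested loci, 0.629% were lower at that q and 6.11% were lower at that p. The most abundant of the list were Myl2 (39354 and 30217 FPKM, -0.38) and Tnnt2 (14612 and 11397 FPKM, -0.36). Tnnc1, which encodes the calcium-binding troponin C, had 5909 and 4101 FPKM (-0.53, p = 0.0112 and q = 0.300 in the authors' deposited table) and is named after its value was seen. Tnnt2, Tnni3 and Myl2 of this list are also among the muscle markers, and no test of the difference between the lists was made. The lists also differ in gene density, which is described below. The 9 myofilament genes had from 4 to 29 named loci within 500 kb, and the calcium genes had a median of 4. The part of gene density in this contrast was not tested.

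Genes of mitochondrial calcium uptake did not pass either threshold: 0 of 9 tested had a deposited p under 0.05, and Vdac3 (log2 fold 0.05) and Vdac1 (-0.17) were the most abundant. Among the 9 tested relatives of S100a1 in the S100 family, 7 were higher in value, opposite to S100a1, and S100a13, whose span is that of S100a1, is among them. S100a9, a neutrophil protein gene, rose from 29.2 to 58.1 FPKM (0.99, q = 0.0318 in the authors' deposited table). It was the 1 called relative of the 9 tested, where 0.815% of all tested loci were called. S100a10 (253 and 325 FPKM, 0.36) and S100a6 (206 and 220 FPKM, 0.09) were the most abundant.

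Over all 108 tested partner genes, 2 rose and 1 fell at a deposited q under 0.05 (Sln, S100a9 and Myl3). At an unadjusted deposited p under 0.05, 6 were higher and 9 lower, together 13.9%, against 9.3% of all tested loci. The lists were chosen with earlier results of these data known, and some partner genes were left out after their values were seen. An excess of changed partners therefore cannot be read from these shares. By value 53 of the 108 partner genes were higher and 55 lower, with a median log2 fold of -0.01. Of 138 partner genes listed, 10 had no locus under their symbol or an older one, Ryr1, Asph and Tcap among them.

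**Figure D2:**
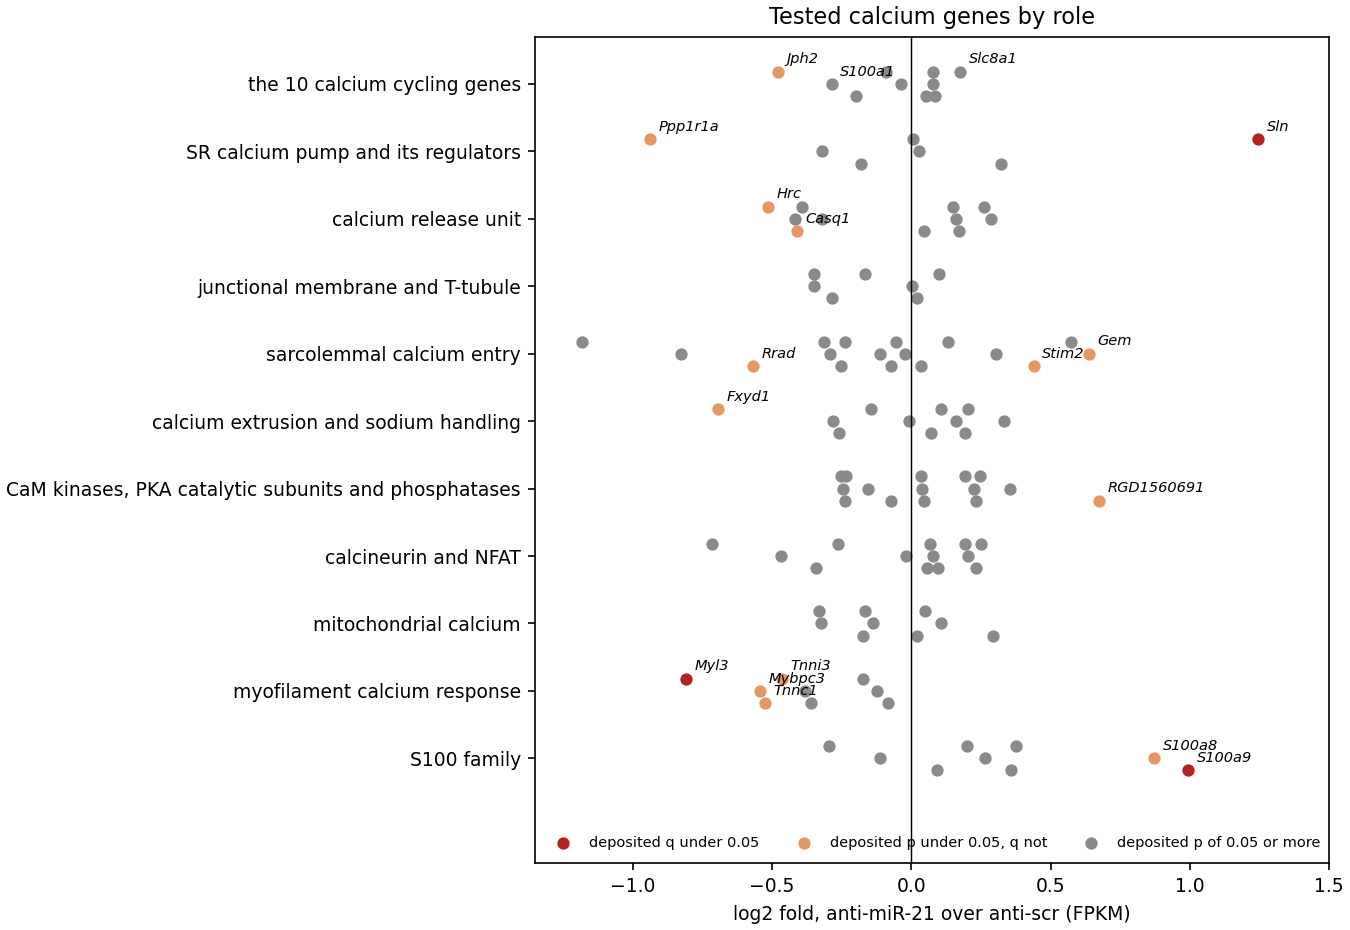
Log2 folds in FPKM (horizontal axis, anti-miR-21 over anti-scr) of the 10 calcium cycling genes in the top line and of their tested partners by role below, 1 point per gene, shifted vertically only for legibility. Colours mark the authors' deposited test, and the red points are Sln at 1.25, S100a9 at 0.99 and Myl3 at -0.81.

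The sign of the fold among the 10 genes went with where they lie in the genome. Across 9478 loci with a single name the log2 fold was lower where more named loci had midpoints within 500 kb (Spearman's rho -0.43, Pearson's r -0.39), a correlation across genes that share the same libraries. The calcium genes lie in sparse neighbourhoods, with a median of 4 such loci against 11 over the named loci. The 5 genes with higher values had 0 (Slc8a1 and Camk2d), 1 (Ryr2), 2 (Trdn) and 4 (Casq2) neighbours. The 3 genes with more than 5 neighbours were all lower in value: Jph2 with 16, Atp2a2 with 19 and S100a1 with 26. The exceptions to a full split were Pln with 4 neighbours and Cacna1c with 5, both lower in value. The counts include named entries that share a gene's own span. These are another Pln entry and LOC100365935 for Pln, the other entry of the same gene for Cacna1c and Trdn, and S100a13 for S100a1. The correlations and the medians by density use the counts as they are. Over the 10 genes rho was -0.82 and r was -0.74, as a description with 10 points. Their loci were also long, with a median span of 173.9 kb against 29.5 kb, and span and fold had a rho of 0.54 over the members and 0.24 over the named loci. The span is that of the locus as deposited, which 5 of the 10 genes share with another entry, and need not be the length of the gene.

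**Figure D3:**
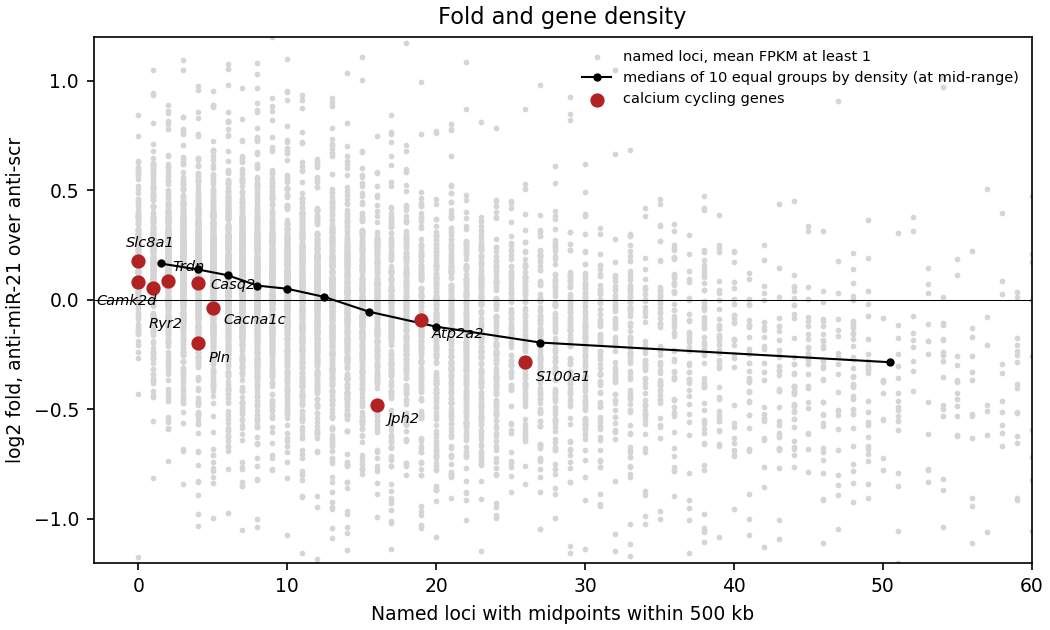
Log2 fold in FPKM against the number of named loci within 500 kb, for loci with a single name (grey points), the medians of 10 groups of 958 loci ordered by that number, loci with several names included (black), and the 10 calcium cycling genes (red). The axes leave out 83 of the 9478 grey points, and Jph2 at 16 neighbours and Pln at 4 lie farthest below the black line.

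Set against loci of the same density, the picture of the 10 genes changed. The named loci were ordered by gene density and divided into 10 groups of 958, and each gene was set against all loci within the range of neighbour counts of its group, ties at the ends of the range included, so that these medians differ slightly from those drawn. With that median fold subtracted, 8 of the 10 genes were below 0 and 2 above it, and their median was -0.08. Ryr2 (-0.11), Casq2 (-0.06), Trdn (-0.08) and Camk2d (-0.08) then turned from higher to lower, and Atp2a2 turned from lower to higher (0.04). In size, all of these values were under 0.20, the median size of a reported log2 fold over the named loci. Jph2 at -0.44 and Pln at -0.34 were the lowest on this scale, while S100a1 stood at -0.09. Slc8a1 remained above 0, at 0.02. These are differences of single group values, and none has an error of its own.

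**Figure D4:**
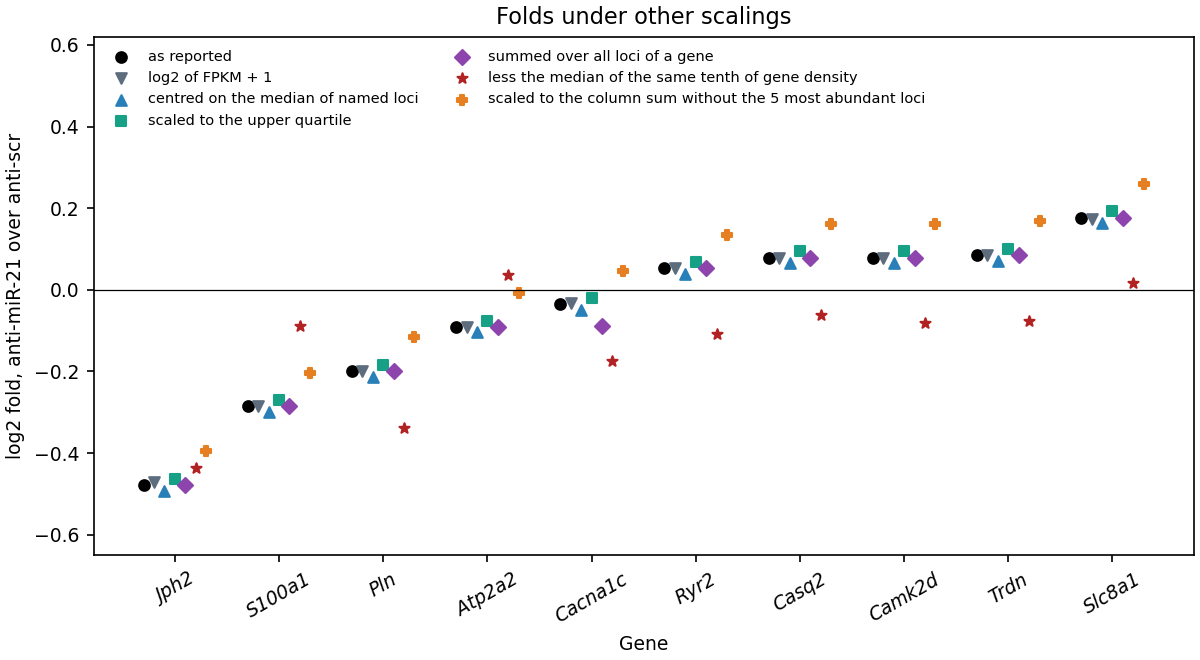
Log2 folds (vertical axis, anti-miR-21 over anti-scr) of the 10 calcium cycling genes as reported and under 6 other ways of scaling the FPKM, 1 symbol per way. Scaling to the full column sum, which put all 10 genes below 0, is left out, and the red stars, taken relative to loci of like gene density, lie more than 0.1 from the black circles for 9 of the 10 genes.

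Base composition at the promoters varied widely among these genes. RefSeq promoters (GRCr8) were matched for 9 of the 10 genes; S100a1 had no entry. In the 250 bases before the start, G and C made up from 35.2% (Slc8a1) to 80.0% (Atp2a2), and CpG pairs numbered from 0 (Trdn) to 45 (Atp2a2). The medians over 27457 promoters were 52.0% and 6. Over 6853 named loci promoter GC content had a rho of -0.01 with the fold, and over the 9 members it was -0.38, as a description with 9 points. For 3 genes the start used is also the outermost start annotated, and their promoters are shown to set the pump, the release channel and the calcium store side by side. Capitals mark CpG pairs, and each runs from 5′ to 3′ on the plus strand.
Atp2a2, chr12:39733269-39733518: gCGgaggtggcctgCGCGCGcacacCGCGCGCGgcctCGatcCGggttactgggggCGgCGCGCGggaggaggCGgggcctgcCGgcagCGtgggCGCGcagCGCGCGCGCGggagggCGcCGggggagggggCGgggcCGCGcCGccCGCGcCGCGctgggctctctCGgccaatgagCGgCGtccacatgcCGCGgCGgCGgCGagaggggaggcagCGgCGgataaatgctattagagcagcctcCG
Ryr2, chr17:63081277-63081526: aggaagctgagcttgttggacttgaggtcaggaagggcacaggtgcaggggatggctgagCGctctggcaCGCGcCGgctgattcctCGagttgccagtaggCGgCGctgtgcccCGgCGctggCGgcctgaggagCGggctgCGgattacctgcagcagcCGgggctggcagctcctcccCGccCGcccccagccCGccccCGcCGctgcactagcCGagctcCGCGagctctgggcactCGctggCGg
Casq2, chr2:192214306-192214555: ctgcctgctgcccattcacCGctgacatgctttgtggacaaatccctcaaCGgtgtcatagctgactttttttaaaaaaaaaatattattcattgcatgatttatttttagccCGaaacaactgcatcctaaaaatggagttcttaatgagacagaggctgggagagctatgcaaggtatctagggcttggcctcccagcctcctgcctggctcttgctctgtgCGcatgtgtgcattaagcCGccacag
The Atp2a2 promoter is dense in CpG, with 45 pairs, that of Ryr2 has 23, and that of Casq2 has 5. The log2 folds of these 3 genes lay between -0.09 and 0.08.

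A few motifs were counted in these windows and in all promoters of the same length. The E-box CANNTG, searched on both strands, was found in 6 of the 9 promoters and in 65.2% of all. The CCAAT box (CCAAT) was in 4 of the 9 (Atp2a2, Pln, Cacna1c and Slc8a1) and in 34.3% of all. The muscle M-CAT core CATTCC was in 1 of the 9 (Cacna1c) and in 11.8% of all, and the letters TATAAA were in 0 of the 9 and in 13.1% of all. Overlaps between motifs were not separated, and a match is a description of letters, not of a bound site.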

How the data were processed

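RNA of left ventricle was sequenced as stranded total RNA libraries, per the labels' protocols, with 2 pooled libraries per group. Per the submitters' processing notes, cutadapt, TopHat2 2.0.10, Cufflinks 2.0.10 and Cuffdiff were used on rn5; annotation and options are not given in the sources used here. The authors deposited 1 FPKM per locus and group, with a test statistic (used as a score to tell tested from untested loci), a p-value and a q-value, and a second table with the count of reads and the percent mapped per library, per the file headers. In 97 loci with several names the cells were realigned. A fold is the log2 ratio of both deposited FPKM values, taken without a pseudocount. A symbol listed at several loci (3 of the 10 genes) is represented by its most abundant one. A call is a deposited q under 0.05; no test of the libraries could be made.

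The members and the 10 partner lists were chosen with earlier results of these data known. Named partners are those with a deposited q under 0.05, otherwise a p under 0.05, and the 2 most abundant of each list; others are marked. Some partner genes are not reported here and were left out of the lists and their counts after the values were seen. Older symbols were matched through RefSeq (GRCr8) for 4 partners: Camk1d, Micu2, Micu3 and Slc8b1. Calculations used Python 3.11.15 with pandas 2.3.3, and the q computation was tested on simulated data. Whether the 2 libraries of a group came from separate litters or days is not given. The deposited p-values rest on pools as replicates, and how the spread between pools was modelled is not given either.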

Additional observations from a re-analysis of the deposited data

How the results depend on the processing

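The count of calcium genes called stayed at 0 with a deposited q under 0.1 and with q recomputed over loci averaging 1 FPKM or more, and was 1 (Jph2) at an unadjusted p under 0.05; at a p under 0.01 it was 0. Calls among partner genes numbered 3, 4 at a q under 0.1, 3 with q recomputed, and 15 at an unadjusted p under 0.05. The median log2 fold of the 10 genes lay between -0.08 and 0.09 under 7 alternatives, the mean in place of the median (-0.06) included. Under the eighth, scaling to the column sum, it was -1.95. That setting shifts every fold by -1.95, because the 5 most abundant loci held 71.5% of the anti-scr column sum and 93.1% of the anti-miR-21 column sum; without those 5 loci, a setting chosen after seeing the data, the shift was 0.08, 6 of 10 genes were above 0, and Cacna1c turned positive (0.05). With log2 of FPKM + 1, centring, upper-quartile scaling or summed loci, all 10 genes kept their sign. No paired analysis was possible because the table gives 1 value per group, and for the same reason no library could be left out. Depth per gene and library is unknown.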
